A study of Mus musculus with 42 samples.

Results

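The antioxidant enzymes described here are 10 genes, taken by name from both deposited count tables: Sod1, Sod2, Cat, Gpx1, Gpx4, Prdx1, Prdx3, Prdx5, Txn2 and Txnrd2. All 10 were found, among 53546 genes of the cortex and hippocampus table and 24421 genes of the whole-brain table. All 10 also passed the filter on low counts in every comparison. The choice by name set no threshold on expression, but it was made with earlier results of these data known.

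Bulk RNA sequencing was done on microglia, the resident macrophages of the brain, sorted as CD11b+ CD45lo cells after a density gradient from C57BL/6 mice. The 42 libraries fall into 11 groups. Whole-brain microglia came from wild-type mice aged 6-12 weeks, kept without specific pathogens (SPF, n = 3) or raised without any microbes, that is, germ-free (GF, n = 5). Cortical microglia came from wild-type mice aged 16 weeks that were SPF, GF, or GF with acetate (GFA), n = 4 each. Hippocampal microglia came from mice of 16 weeks in the same 3 conditions, wild type (n = 4, 3 and 4 for SPF, GF and GFA) and 5xFAD (n = 4, 3 and 4). Acetate, a short-chain fatty acid made by gut bacteria, was given in the drinking water for 8 weeks, and the labels also mention a GF group treated for 4 weeks. 5xFAD mice carry human familial Alzheimer's disease transgenes driven by the neuronal Thy1 promoter and deposit amyloid early. Libraries are named by condition and animal number, as in SPF1, GF529 and GFA518.

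Superoxide, which leaks from respiring mitochondria and is made by the phagocyte NADPH oxidase, is turned into hydrogen peroxide by superoxide dismutases. Hydrogen peroxide is then removed by catalase in peroxisomes, by glutathione peroxidases at the expense of glutathione, and by peroxiredoxins at the expense of thioredoxin. Mitochondria have their own thioredoxin and thioredoxin reductase, which take their electrons from NADPH. Microglia, as phagocytes, both make such oxidants and must withstand them.

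Among these genes, 3 of 10 have a TGA codon inside the reading frame of the principal transcript, which is read as selenocysteine, the reactive residue of these enzymes. The stretches around it are shown because both genes called by edgeR in the planned comparisons below, Gpx1 and Txnrd2, are of this kind. DESeq2 also called Cat and Prdx1 in planned comparisons, and these are not of this kind. They come from the GENCODE M21 transcripts (mouse build GRCm38), run 5′ to 3′ on the coding strand, and have the selenocysteine codon in capitals.
Gpx1, codon 47: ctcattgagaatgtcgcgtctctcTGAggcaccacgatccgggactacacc
Gpx4, codon 73: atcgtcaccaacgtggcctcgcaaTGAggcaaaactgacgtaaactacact
Txnrd2, near the end: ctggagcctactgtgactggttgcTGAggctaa
In Gpx1 (chromosome 9) and Gpx4 (chromosome 10) the codon lies inside the protein, with 154 and 124 further codons before the stop. In Txnrd2 (chromosome 16) 1 codon separates it from the stop. The other members had 0 TGA codons in frame before their stop codon.

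Total counts, in M reads, were 19.33 to 25.37 M in whole brain, 15.79 to 23.86 M in cortex and 5.74 to 22.53 M in hippocampus, where wild-type SPF4 (5.86 M) and 5xFAD SPF2142 (5.74 M) were shallow. Member counts in single libraries ran from 136 for Sod1 upward. Y-linked genes summed to at most 0.09 CPM (counts scaled to a common library size) in whole-brain libraries and to at least 207.7 CPM in the rest, so age and sex both differ between those sets. The 10 microglial markers summed to 41440 to 85100 CPM. The 7 astrocyte markers summed to 192 to 472.7 CPM, nearly all from Slc1a3 (190.0 to 468 CPM); each of the others was at most 5.79 CPM, and Gfap was at 0 in 29 of the 42 libraries. Summed neutrophil markers reached 258.9 CPM in 5xFAD SPF2153, 226.4 CPM in wild-type hippocampus GF532 and 174.8 CPM in whole-brain GF4, and were at most 28.4 CPM in the other libraries. Erythroid markers reached 72.53 CPM in wild-type hippocampus SPF3.

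Levels are given as CPM scaled by TMM, computed separately for each table, so whole-brain levels are not set against the others. Per kilobase of principal transcript, Gpx1, the cytosolic glutathione peroxidase, was the most abundant member of the cortex and hippocampus table. It averaged 254.5 CPM per kb over the 9 groups, with group means from 189.7 to 299.1, and its SD bars lay above those of the next member in 9 of 9 groups. Prdx1, the main cytosolic peroxiredoxin, followed at 68.5 CPM per kb, then Gpx4, the peroxidase that repairs oxidised membrane lipids, at 62.4, and Prdx5 at 58.9. Prdx1 and Gpx4 had SD bars apart in 0 of 9 groups, so these neighbours were not ordered. Prdx3, the mitochondrial peroxiredoxin, stood at 44.9 CPM per kb, Sod1, the cytosolic copper-zinc dismutase, at 42.0 and catalase at 36.8. The mitochondrial pair was lower, with Txn2 at 25.9 CPM per kb and its reductase Txnrd2 at 19.6. Sod2, the mitochondrial manganese dismutase, was lowest at 5.44 CPM per kb, and 9 of 9 groups had SD bars apart from those of Txnrd2. This rank rests on the transcript length used, 5861 bases for Sod2 and 641 for Sod1. Without division by length Sod2 averaged 31.9 CPM, above Sod1 at 26.9 CPM.

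In the cortex and hippocampus table the highest group mean was 1.25 to 1.68 times the lowest, depending on the member. When the 9 groups were ranked by level, none of the 8 pairs of neighbours had SD bars apart for 9 members. For Prdx1 1 pair did, cortex GF above wild-type hippocampus GF. Neighbours in a ranking are the closest groups by construction, so these overlaps do not show that groups further apart are alike. Nnt, described below, had 1 of 8 pairs apart, although its highest group mean was 2.17 times its lowest.

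**Figure D1:**
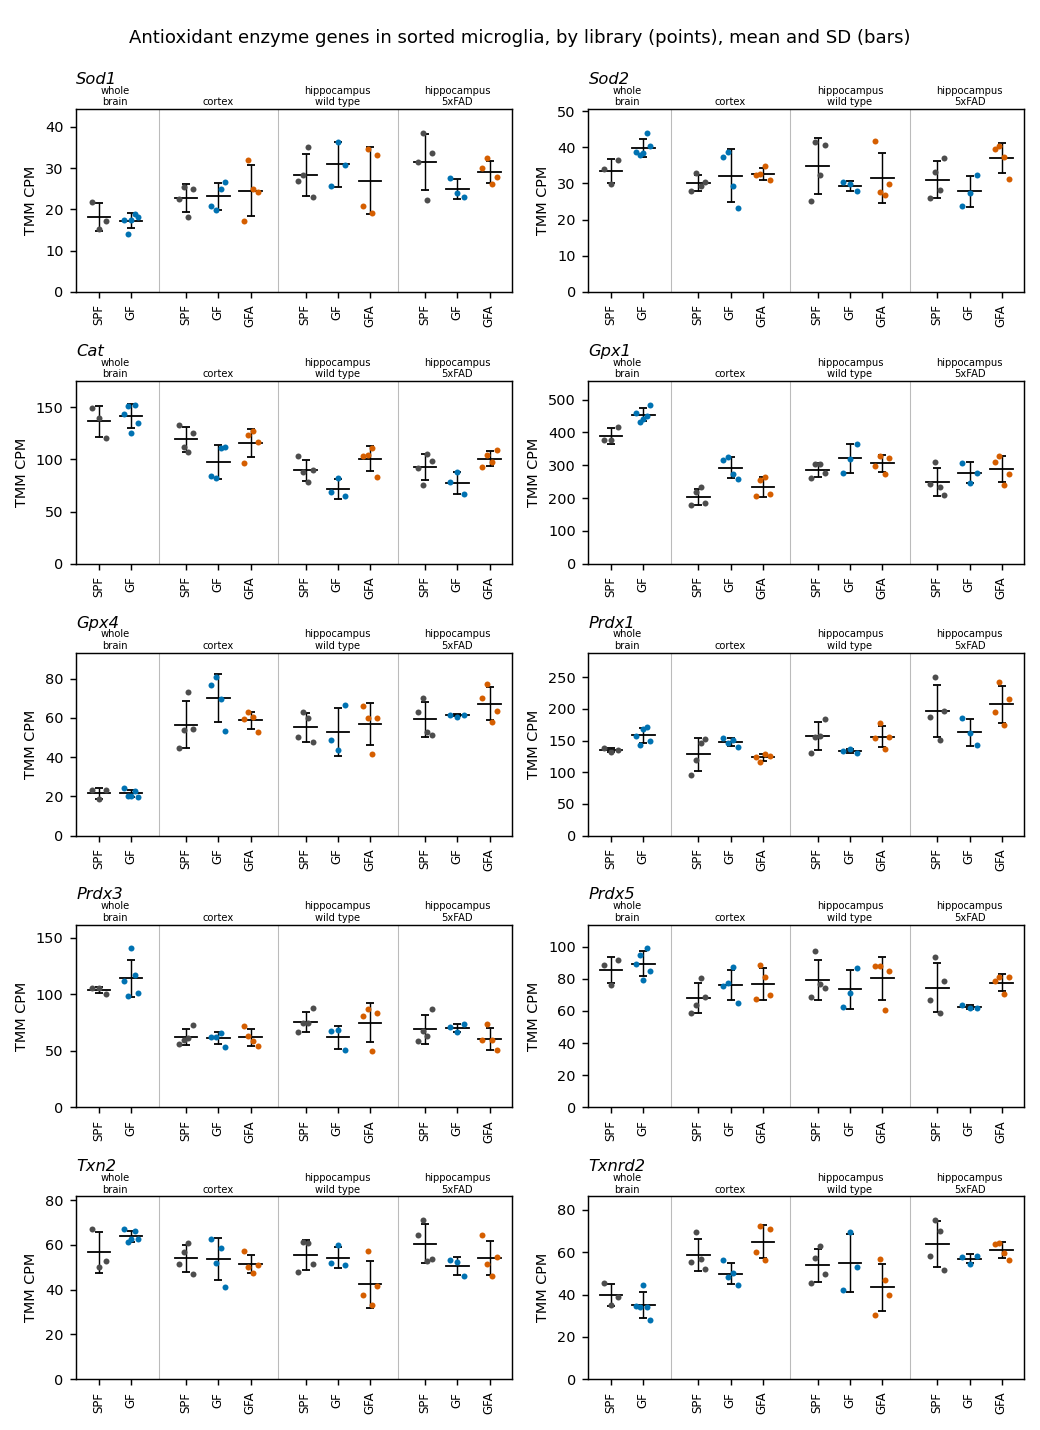
Level of each of the 10 genes (CPM, TMM-scaled, axis from 0) in every library by group, with the mean and SD. Points are libraries. Gpx1 in cortex lies at 179 to 232 CPM in SPF and at 257 to 324 CPM in GF, and most other groups overlap.

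The first question was whether these enzymes differ without a microbiota. In cortex, Gpx1 rose in GF mice by 1.44 times, and by edgeR no other member passed in any of the 4 GF against SPF comparisons. Cortical Gpx1 was 179, 217, 232 and 185 CPM in SPF1 to SPF4 and 317, 324, 273 and 257 CPM in GF528, GF529, GF530 and GF532. Every GF library was above every SPF library, with means of 293 ± 32.6 CPM (SD, n = 4) and 203 ± 25.6 CPM (SD, n = 4). The log2 difference was 0.53 (SE 0.11, 95% interval 0.29 to 0.76, adjusted p = 0.022, edgeR quasi-likelihood test with Benjamini-Hochberg adjustment over all genes). Both edgeR and DESeq2 called 1 of 10 members there. An unadjusted p under 0.05 was reached by 3 members and by 13.8% of all genes. Of all 15113 genes tested, edgeR called 1.71%, in either direction, and DESeq2 called 613. The edgeR background itself moves with single libraries: 259 genes were called in cortex, and 124 to 379 when 1 library was left out. The call was lost without GF528 (log2 0.48, adjusted p = 0.091), GF529 (0.47, 0.083) or SPF1 (0.47, 0.065).

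Summed microglial markers moved with this difference, at 45410 to 51810 CPM in cortical GF and 53720 to 66910 CPM in SPF. Summed border macrophage markers were also lower, at 8.97 to 11.5 CPM against 20.8 to 35.6 CPM, and astrocyte markers, mainly Slc1a3, were 354 to 468 CPM against 303 to 390 CPM. Their part in the Gpx1 difference was not tested. In such bulk samples fewer cells of a type and less RNA per cell cannot be told apart.

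In whole brain Gpx1 was 375, 375 and 416 CPM in SPF and 460, 432, 441, 449 and 484 CPM in GF. The groups did not overlap, but the difference of log2 0.22 (SE 0.06) missed the threshold at adjusted p = 0.067. In wild-type hippocampus Gpx1 was 260, 304, 304 and 276 CPM in SPF and 277, 320 and 365 CPM in GF, with overlap and a log2 difference of 0.18 (SE 0.13, adjusted p = 0.61). In 5xFAD hippocampus it was 243, 310, 232 and 211 CPM in SPF and 308, 245 and 277 CPM in GF, also overlapping, at log2 0.17 (SE 0.13, adjusted p = 0.70). The fitted difference was thus positive in each of the 4 settings, and by edgeR it passed in cortex. In whole brain it passed with DESeq2 (adjusted p = 0.01) and with a filter at a mean of 5 CPM (adjusted p = 0.048). Whether it differed between regions was tested by subtracting the differences within animals, a contrast chosen after seeing the data. The GF effect on Gpx1 was lower in hippocampus than in cortex by log2 0.32 (interval -0.68 to 0.03, adjusted p = 0.93), which did not pass.

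Catalase had a negative difference in cortex and both hippocampal comparisons, and not in whole brain, and passed in none of them by edgeR. In cortex Cat was 133, 112, 107 and 126 CPM in SPF and 83.7, 82.5, 111 and 112 CPM in GF, with overlap and a log2 difference of -0.29 (SE 0.13, adjusted p = 0.29). In hippocampus the log2 difference was -0.31 in wild type (adjusted p = 0.37) and -0.25 in 5xFAD (adjusted p = 0.52). In whole brain it was 0.05 (adjusted p = 0.85), with 120.1 to 149 CPM in SPF and 125 to 152 CPM in GF.

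The dismutases, the peroxiredoxins, Gpx4 and the mitochondrial thioredoxin pair gave no call. In whole brain Sod2 was 33.9, 29.98 and 36.6 CPM in SPF and 37.8 to 44.0 CPM in GF (log2 0.25, adjusted p = 0.32), and Prdx1 was 132 to 138 CPM in SPF and 144 to 171 CPM in GF (log2 0.23, adjusted p = 0.15). Neither pair of groups overlapped. Whole brain had 0 of 10 members called by edgeR, against 1.99% of all genes, and 1 by DESeq2 (Gpx1), against 638 of 11332 genes. There 3 of 10 had an unadjusted p under 0.05, against 15.3% of all genes. Wild-type hippocampus had 0 of 10 called by either tool, against 0.727% of all genes by edgeR. It had 1 at an unadjusted p under 0.05, against 12.6%. 5xFAD hippocampus had 0 of 10 called by either tool, against 1.82% by edgeR, and 0 at an unadjusted p under 0.05, against 11.9%. The median log2 difference over the members was 0.10 in whole brain, 0.06 in cortex, -0.07 in wild-type and -0.19 in 5xFAD hippocampus, and that over all genes was 0.00 in each.

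**Figure D2:**
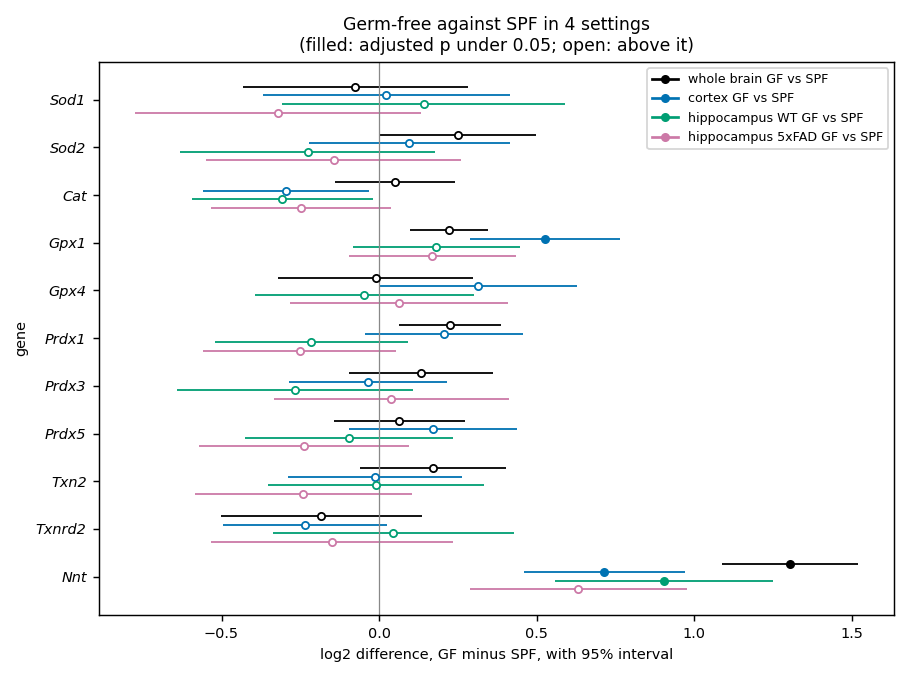
Log2 difference of GF minus SPF for the 10 genes and Nnt in whole brain, cortex, wild-type and 5xFAD hippocampus, with 95% intervals from edgeR; the vertical line is at 0. Gpx1 lies to the right of the line in each setting (0.53 in cortex), and Nnt lies further right, from 0.63 to 1.30.

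Nnt, no member itself, is given beside them as a supplier of their electrons: it encodes the mitochondrial transhydrogenase that makes NADPH for glutathione and thioredoxin reduction. It was 42.3, 48.8 and 48.0 CPM in whole-brain SPF and 99.7 to 127 CPM in GF. In cortex it was 51.4 to 73.6 CPM in SPF, 87.1 to 106 CPM in GF and 94.1 to 117 CPM in GFA. In wild-type hippocampus it was 38.4 to 71.3 CPM in SPF, 81.9 to 101 CPM in GF and 93.2 to 102 CPM in GFA. In these groups every GF and GFA library was above every SPF library of its tissue.

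Nnt rose in GF against SPF in whole brain (log2 1.30, SE 0.10, adjusted p = 1.2e-05), cortex (0.71, SE 0.12, adjusted p = 0.0048) and wild-type hippocampus (0.91, SE 0.17, adjusted p = 0.013). In 5xFAD hippocampus, at 49.6 to 71.3 CPM in SPF and 91.5 to 114 CPM in GF, it missed the threshold (0.63, SE 0.17, adjusted p = 0.051), which it passed with DESeq2 (0.0091), at a mean of 5 CPM (0.027), with no filter (0.044) and with RLE scaling (0.048). It also rose in GFA against SPF in cortex (0.86, adjusted p = 0.0022) and wild-type hippocampus (0.97, adjusted p = 0.0047). In 5xFAD hippocampus GFA libraries were at 93.5 to 111 CPM, all above SPF, with log2 0.70 (SE 0.16, adjusted p = 0.13 by edgeR and 0.0095 by DESeq2). GFA against GF gave log2 differences of 0.14 in cortex and 0.06 in wild-type hippocampus, neither called. The labels give the strain as C57BL/6 with no substrain; as background, C57BL/6 substrains are known to differ at Nnt, and substrain was not tested. In wild-type hippocampus the GF call was lost when only SPF and GF were fitted (adjusted p = 0.095), without GF529 (0.079) or without SPF4 (0.054), with log2 differences of at least 0.83. The GFA call there was lost when only the groups compared were fitted (log2 0.97, adjusted p = 0.12) and without SPF3 and SPF2153 (log2 0.91, adjusted p = 0.057).

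The second question was what acetate did in GF mice. These comparisons share their GF or SPF libraries with those above. By edgeR no member passed in any single comparison of GFA with GF or SPF. In hippocampus every GFA library had more catalase than every GF library of its genotype, and DESeq2 called it in wild type (log2 0.47, adjusted p = 0.039). In wild-type hippocampus Cat was 68.4, 82.2 and 64.5 CPM in GF529, GF530 and GF532 and 103, 105, 111 and 83.4 CPM in GFA518, GFA523, GFA524 and GFA525. In 5xFAD hippocampus it was 78.4, 87.9 and 66.9 CPM in GF and 93.0, 104, 97.1 and 109 CPM in GFA. The groups did not overlap in either genotype. The log2 difference was 0.48 (SE 0.14, adjusted p = 0.12) in wild type and 0.36 (SE 0.14, adjusted p = 0.49) in 5xFAD.

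Averaged over the genotypes, a contrast chosen after seeing the data, Cat rose by log2 0.42 (SE 0.10, adjusted p = 0.023, edgeR). It was the 1 of 10 members called by either tool, beside 1.85% of all genes by edgeR and 625 of 17063 by DESeq2. An unadjusted p under 0.05 was reached by 2 members and by 12.9% of all genes. Without 5xFAD GF531, 5xFAD GFA522, or wild-type GF529, GF532 or GFA524 the Cat call was lost, with log2 differences of 0.37 to 0.40 and adjusted p of 0.05 to 0.11. Cat in SPF hippocampus was 103, 87.7, 78.4 and 90.1 CPM in wild type and 92.2, 75.4, 105 and 98.5 CPM in 5xFAD, overlapping both other conditions. GFA minus SPF was log2 0.14 (SE 0.09, adjusted p = 0.75) and GF minus SPF was -0.28 (SE 0.10, adjusted p = 0.12), each averaged over the genotypes. For these averages 0 of 10 members were called by edgeR or DESeq2, against 0.264% and 4.67% of all genes by edgeR. An unadjusted p under 0.05 was reached by 1 and 2 members, against 8.33% and 17.2% of all genes. Summed microglial markers moved with Cat, at 43850 to 45880 CPM in wild-type GF and 56580 to 59360 CPM in GFA, and at 41440 to 42900 and 49110 to 50650 CPM in 5xFAD. In 5xFAD astrocyte markers were 469 to 473 CPM in GF and 226 to 343 CPM in GFA, and border macrophage markers 3.83 to 10.4 and 10.9 to 31 CPM. B-cell markers, mainly Ighm, were 379 to 502 and 542 to 702 CPM there, and oligodendrocyte markers 140.5 to 148.2 and 150.2 to 177.2 CPM. The astrocyte, border macrophage, B-cell and oligodendrocyte lists did not overlap between GF and GFA in 5xFAD, and in wild type they did. The microglial markers did not overlap in either genotype. What part any of these lists had in the Cat difference was not tested.

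In cortex, GFA libraries had Cat at 96.4, 123, 127 and 117 CPM, a log2 difference of 0.25 from GF (SE 0.12, adjusted p = 0.48). Cortical Gpx1 in GFA was 205, 255, 263 and 212 CPM, below GF by log2 0.33 (SE 0.11, adjusted p = 0.22) and above SPF by 0.20 (adjusted p = 0.80), so it overlapped both. Txnrd2, the reductase that keeps Txn2 reduced, was 56.2, 48.1, 50.3 and 44.3 CPM in cortical GF and 60.2, 72.3, 56.5 and 71.0 CPM in GFA. These did not overlap, and the log2 difference of 0.38 (SE 0.12) had adjusted p = 0.17. In wild-type hippocampus Txnrd2 differed in the opposite direction, by -0.34 (SE 0.18, adjusted p = 0.47), and its partner Txn2 by -0.37 (SE 0.17, adjusted p = 0.38). There Txn2 was 51.2 to 59.8 CPM in GF and 37.6, 57.4, 33.2 and 41.6 CPM in GFA, overlapping.

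Cortex GFA against GF had 0 of 10 members called by edgeR and by DESeq2, against 0.973% of all genes by edgeR. There 3 members had an unadjusted p under 0.05, against 11.3% of all genes. Cortex GFA against SPF had 0 of 10 by either tool, against 0.364%, and 0 at an unadjusted p under 0.05, against 7.03%. In wild-type hippocampus GFA against GF had 0 of 10 by edgeR, against 0.492%. DESeq2 called 1 (Cat, adjusted p = 0.039), against 365 of 17063 genes. There 2 had an unadjusted p under 0.05, against 11.7%. GFA against SPF there had 0 of 10 by both tools, against 0.123%, and 1 at an unadjusted p under 0.05, against 8.03%. In 5xFAD hippocampus GFA against GF had 0 of 10 by both tools, against 0.082%, and 2 at an unadjusted p under 0.05, against 7.54%. GFA against SPF there had 0 of 10 by both tools, against 0.0527%, and 0 at an unadjusted p under 0.05, against 6.72%.

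**Figure D3:**
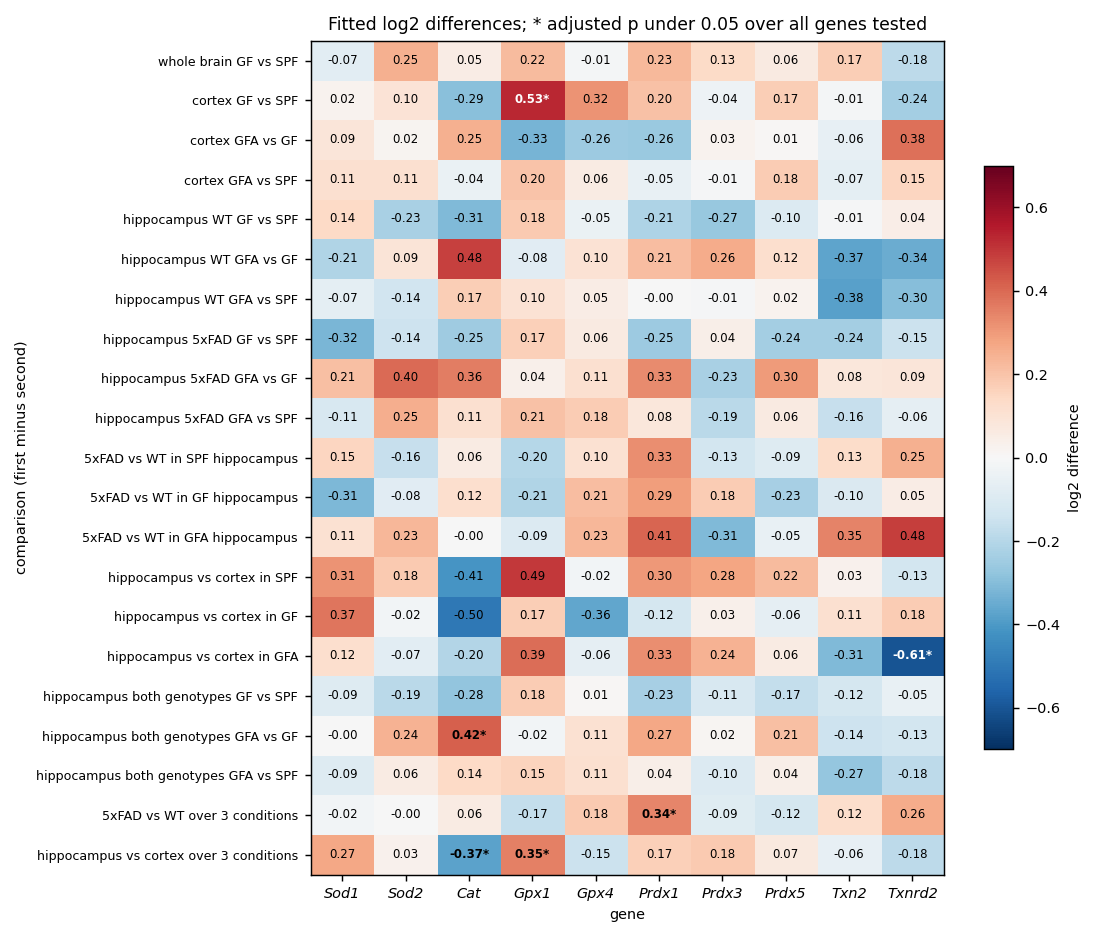
Fitted log2 differences, first-named group minus second, of the 10 genes (columns) in each comparison without the interactions (rows), coloured from lower (blue) to higher (red), with an asterisk where the edgeR adjusted p was under 0.05. The comparisons of single groups carry 2 asterisks, Gpx1 in cortex GF against SPF and Txnrd2 in hippocampus against cortex with acetate, and the averages in the last rows carry the others.

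The third question was whether the 5xFAD genotype shifts these enzymes in hippocampal microglia. Prdx1, a thiol peroxidase that removes hydrogen peroxide with electrons from thioredoxin, was the member that stood out. It was 130, 156, 158 and 184 CPM in wild-type SPF and 187, 251, 151 and 196 CPM in 5xFAD SPF. In GF it was 133, 137 and 129.6 CPM in wild type and 185, 162 and 143 CPM in 5xFAD. In GFA it was 155, 177, 136 and 156 CPM in wild type and 195, 243, 175 and 216 CPM in 5xFAD. The genotypes overlapped in SPF and GFA and not in GF.

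In no single condition did Prdx1 pass, at log2 0.33 in SPF (SE 0.14, adjusted p = 0.40), 0.29 in GF (SE 0.16, adjusted p = 0.54) and 0.41 in GFA (SE 0.14, adjusted p = 0.13). Averaged over the 3 conditions, again a contrast chosen after the data were seen, Prdx1 rose in 5xFAD by log2 0.34 (SE 0.08, interval 0.17 to 0.51, adjusted p = 0.012, edgeR), and 1 of 10 members was called by either tool. That average is one over which 6.96% of all genes were called, so 1 of 10 is near the background. It stayed called without any single library. Summed microglial markers moved with genotype, at 56160 to 61290 CPM in wild-type SPF against 42410 to 57450 CPM in 5xFAD SPF, 43850 to 45880 against 41440 to 42900 CPM in GF, and 56580 to 59360 against 49110 to 50650 CPM in GFA. Border macrophage markers in GFA were 1.27 to 10.12 CPM in wild type and 10.9 to 31 CPM in 5xFAD, and astrocyte markers in GF were 315 to 432 and 469 to 473 CPM. Their part in the Prdx1 difference was not tested.

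Txnrd2 was higher in 5xFAD with acetate, at 56.4 to 64.4 CPM against 30.5 to 56.7 CPM in wild type (log2 0.48, SE 0.17, adjusted p = 0.16), with slight overlap. Txn2 differed there by 0.35 (SE 0.15, adjusted p = 0.29). Averaged over conditions Txnrd2 differed by 0.26 (adjusted p = 0.15) and Gpx1 by -0.17 (adjusted p = 0.19). Sod1, Sod2, Cat, Gpx4, Prdx3, Prdx5 and Txn2 averaged between -0.12 and 0.18. By either tool 0 of 10 members were called in SPF, GF or GFA alone, against 0.568%, 0.756% and 2.51% of all genes by edgeR. At an unadjusted p under 0.05 there were 1, 0 and 3 members, against 10.2%, 10.6% and 14.3% of all genes.

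Whether 5xFAD altered the responses to GF housing or acetate was tested as an interaction. By edgeR 0 of 10 members and 0% of all genes were called for GF against SPF, for GFA against GF and for GFA against SPF, and 0 of 10 members by DESeq2. None of the members reached an unadjusted p under 0.05 in these tests, while 942, 905 and 1124 of all genes did. The intervals were wide: for Cat with acetate the difference between genotypes was log2 -0.12 (SE 0.19), and for Prdx3 -0.49 (SE 0.25, adjusted p = 0.94). So these tests do not show that the genotypes respond alike.

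The fourth question was how hippocampal and cortical microglia of the same wild-type animals differ. With acetate Txnrd2 fell in hippocampus against cortex to 0.657 times. Averaged over the 3 conditions, catalase fell and Gpx1 rose in hippocampus, each in 10 of 11 animals. The animal was kept as a block, and cortex GF528, without a hippocampal library, was left out.

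Hippocampal Txnrd2 in GFA518, GFA523, GFA524 and GFA525 was 30.5, 56.7, 46.9 and 39.9 CPM, and in cortex of the same mice 60.2, 72.3, 56.5 and 71.0 CPM. All 4 animals were lower in hippocampus, although the lowest cortical value lay just under the highest hippocampal one. The log2 difference was -0.61 (SE 0.15, interval -0.92 to -0.29, adjusted p = 0.045). This was 1 of 10 members called by edgeR, where 2.38% of all genes were called. At an unadjusted p under 0.05 there were 4 members, against 17.9% of all genes. In SPF the Txnrd2 difference was -0.13 (adjusted p = 0.79) and in GF 0.18 (adjusted p = 0.76). The regional difference was lower in GFA than in GF by log2 0.79 (interval -1.27 to -0.30), but with adjusted p = 0.99 over all genes. The call was lost without animals GF530 and GFA518 (log2 -0.48, adjusted p = 0.16), without GFA518 alone (-0.49, 0.18), without GFA523 (-0.69, 0.09) or GFA525 (-0.53, 0.21), without the block (-0.58, 0.085) and with RLE scaling (-0.59, 0.050). GFA518 in hippocampus also had few genes detected, 16607. Oligodendrocyte markers moved with region, at 184 to 204 CPM in cortical GFA and 139 to 153 CPM in hippocampal GFA, and their part in the difference was not tested.

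Prdx5 shares 409 of 2139 exon bases with Trmt112 on the opposite strand, which stood at 17.3 to 30.1 CPM. Whether counting used strand is not given in the sources used here, so reads from the shared stretch cannot be told apart.

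Gpx1 was higher in hippocampus than in cortex in 4 of 4 SPF, 2 of 3 GF and 4 of 4 GFA animals. The log2 difference was 0.49 in SPF (SE 0.11, adjusted p = 0.051), 0.17 in GF (adjusted p = 0.65) and 0.39 in GFA (adjusted p = 0.070). Averaged it was 0.35 (SE 0.07, adjusted p = 0.0034). Cat was lower in hippocampus in 4 of 4 SPF, 3 of 3 GF and 3 of 4 GFA animals, by log2 -0.41 (adjusted p = 0.094), -0.50 (adjusted p = 0.11) and -0.20 (adjusted p = 0.35), and averaged by -0.37 (SE 0.07, adjusted p = 0.0026). Both averages were chosen after seeing the data, and 12.5% of all genes were called in that average, so 2 of 10 members is close to the background. Neither call was lost when any 1 animal was left out.

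Prdx1 was higher in hippocampus in 4 of 4 SPF and 4 of 4 GFA animals and in 0 of 3 GF animals. The log2 difference was 0.30 (SE 0.09, adjusted p = 0.14), 0.33 (SE 0.09, adjusted p = 0.073) and -0.12 (SE 0.11, adjusted p = 0.72) in SPF, GFA and GF. Cortical values in the GF animals GF529, GF530 and GF532 were 146, 151 and 140.2 CPM against 133, 137 and 129.6 CPM in hippocampus. In GFA the cortical values were 124, 117, 129 and 125 CPM against 155, 177, 136 and 156 CPM. The regional difference in GF minus that in SPF was log2 -0.43 (interval -0.73 to -0.13, adjusted p = 0.85), and GFA minus GF was 0.45 (interval 0.15 to 0.75, adjusted p = 0.99). Neither interval spans 0, and neither passed the adjustment over 16706 genes.

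**Figure D4:**
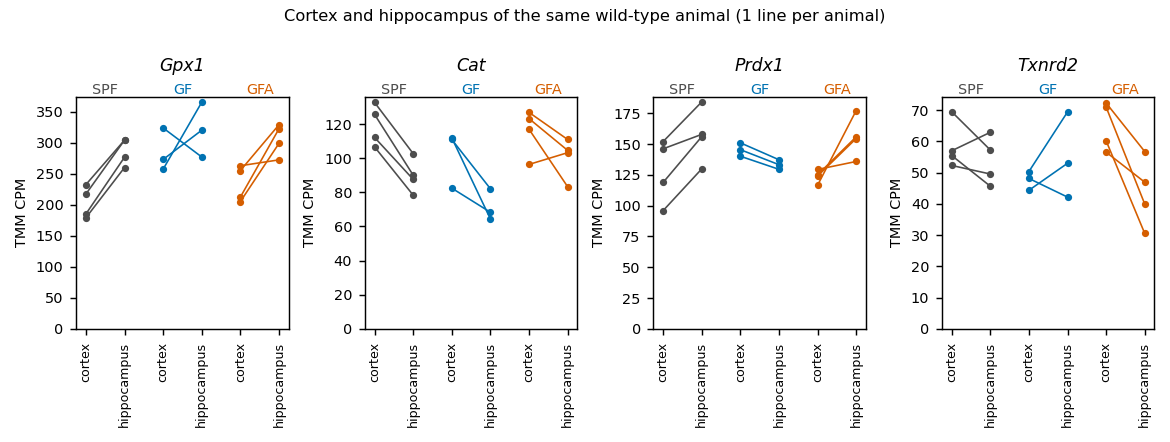
Level (CPM) of Gpx1, Cat, Prdx1 and Txnrd2 in cortex and hippocampus of the same 11 wild-type animals; each line is 1 animal, grouped by SPF, GF and GFA. Gpx1 lines go up to hippocampus and Cat lines go down in 10 of 11 animals each, while Prdx1 lines go up in SPF and GFA and down in the 3 GF animals.

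By edgeR 0 of 10 members were called between regions in SPF and 0 in GF, against 0.718% and 0.0359% of all genes. At an unadjusted p under 0.05 there were 4 and 1 members, against 13.9% and 11.9% of all genes. DESeq2 called 3 in SPF (Gpx1, Cat and Prdx1), 1 in GF (Cat) and 3 in GFA. Of all 16706 genes it called 896, 509 and 1406 there. For the 3 interactions of region with condition 0 of 10 members were called by either tool, against 0% of all genes by edgeR. There 1, 2 and 1 members had an unadjusted p under 0.05, against 5.39%, 4.38% and 4.38% of all genes. The other members, Sod1, Sod2, Gpx4, Prdx3, Prdx5 and Txn2, averaged between -0.15 and 0.27 between regions, the highest being Sod1 (adjusted p = 0.14), which was higher in hippocampus in 9 of 11 animals.

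Genes of the surrounding pathways were counted in 6 lists, with at most 3 called genes named per list by smallest p; further names were added after their values were seen. In the GF comparisons few moved. In whole brain the regulator Txnip, which binds and inhibits thioredoxin, fell (log2 -0.30, adjusted p = 0.032; 1 of 14 tested in the thioredoxin list), and G6pdx, which opens the pentose phosphate pathway and makes NADPH, rose beside Nnt (0.39, adjusted p = 0.048; 2 of 14 in the NADPH list). In cortex Bach1, a repressor of NRF2 target genes, fell (log2 -0.69, adjusted p = 0.017; 1 of 16), and the selenoprotein gene Selenow rose (0.85, adjusted p = 0.05 after rounding; 1 of 19). In hippocampus Selenop, the secreted selenium carrier, fell in GF wild type (-0.50, adjusted p = 0.0099) and GF 5xFAD (-0.39, adjusted p = 0.022), 1 of 19 in each. Selenow, Selenop and Selenok were not found in the whole-brain table, where 8 of the 19 genes of that list were tested. Averaged over genotypes Selenop rose again with acetate (log2 0.30, adjusted p = 0.010; 1 of 19, against 1.85% of all genes). Gpx1 and Gpx4, selenoproteins too, differed by -0.02 and 0.11 there. In the GF against SPF average Selenop and Selenok fell (-0.44 and -0.47), 2 of 19, and in the NADPH list Nnt rose and Mthfd2 fell, 1 each of 14. That average had 4.67% of all genes called. List medians stayed between -0.17 and 0.17 in the 4 single GF comparisons, beside all-gene medians of 0.00.

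The 5xFAD genotype had calls in these lists too. With acetate, where 2.51% of all genes were called, Prdx4, the peroxiredoxin of the endoplasmic reticulum, rose (log2 1.20, adjusted p = 0.0076), as did Prdx6 (0.77, adjusted p = 0.032), 2 of 6 tested among other superoxide and peroxide enzymes, where the list median was 0.53 against 0.00 for all genes. The glutathione transferase Gsto1 rose (0.88, adjusted p = 0.026; 1 of 17), and of the NRF2 list the iron-storage ferritins Fth1 (0.78, adjusted p = 0.0048) and Ftl1 (0.46, adjusted p = 0.029) and the reductase Akr1a1 (0.53, adjusted p = 0.021) rose, 3 of 16, while Txnip fell (-0.44, adjusted p = 0.03; 1 of 15). In GF mice Idh2, a mitochondrial source of NADPH, was lower in 5xFAD (-0.49, edgeR adjusted p = 0.041, 1 of 14). There 0.756% of all genes were called. In SPF mice none of the lists had a call by edgeR. Averaged over conditions, where 4.2% of all genes were called higher and 2.77% lower, 5 of 16 NRF2 genes rose (Fth1, Maff, Ftl1, Akr1a1 and Hmox1), as did Prdx4, Prdx6, Gsto1 and Txnrd1, the cytosolic counterpart of Txnrd2 (log2 0.34, adjusted p = 0.028), and Txnip, Glrx2 and Idh2 fell. These are 2 of 6 peroxide enzymes, 1 of 17 glutathione genes, 1 higher and 2 lower of 15 thioredoxin genes and 1 lower of 14 NADPH genes; single calls in lists of this size are near the background. Whether these genes and the members differ in their response was not tested.

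Between regions the single-condition calls were Selenok, higher in hippocampus in SPF and GFA, and Sqstm1, lower in GFA. There 0.718% and 2.38% of all genes were called in SPF and GFA. Averaged over conditions, where 8.06% of all genes were called lower and 4.43% higher in hippocampus, the NADPH list had 4 of 14 genes lower in hippocampus (Nadk, Pgd, G6pdx and Tkt) and 0 higher, and the NRF2 list had 5 of 16 lower (Sqstm1, Nfe2l2, Nfe2l1, Mafk and Osgin1) and Fth1 higher. The thioredoxin list had 4 of 15 higher (Msrb2, Txndc12, Glrx3 and Txn1), peroxide enzymes 2 of 6 higher (Prdx2 and Prdx4), selenoproteins 3 of 19 higher (Selenok, Selenof and Selenot), and Gclc, for glutathione synthesis, was lower (1 of 17). Beside 12.5% of all genes called in either direction, the glutathione share is no larger and that of the selenoproteins is near it. Nfe2l2, which encodes NRF2 itself, fell by 0.22 on the log2 scale (adjusted p = 0.0037).

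For each member called somewhere, the genes of most similar pattern were sought by Pearson r of log2 group means over the 9 cortex and hippocampus groups, among 9480 genes. Gpx1 was most like Rnase4 (r = 0.943) and Borcs7 (0.936), and Cat most like Trim32 (0.982) and Rab1b (0.96). Prdx1 was most like Gstm5 (0.97) and Ndufb5 (0.968), and Txnrd2 most like Mvp (0.945) and Tlcd2 (0.941). With 9 points that share libraries, and the best of so many genes picked, these values only describe the pattern. Among the members themselves, over the same 9 groups, r ran from -0.701 (Gpx1 and Cat) to 0.747 (Sod2 and Prdx5), with 0.718 for Txn2 and Txnrd2.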

How the data were processed

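The deposited files hold raw counts of reads per gene in 42 libraries, made by the authors. The submitters' processing notes name STAR 2.5.2b, featureCounts 1.5.1 and the human build GRCh38, although the gene symbols are mouse symbols, and therefore coordinates were not taken from the files. Counting strand and treatment of multi-mapping reads are not given in the sources used here; Gpx4-ps2, a Gpx4 pseudogene, had 9 to 94 counts a library in the larger table. 0 columns were left without a sample.

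Whole brain, cortex, hippocampus and the paired regions were fitted separately in R 4.3.3 with edgeR 4.0.16 (filterByExpr with a minimum count of 10, TMM, robust quasi-likelihood tests, two-sided, Benjamini-Hochberg over all genes tested, called at adjusted p under 0.05) and, as an alternative, DESeq2 1.42.0. Fits were tested on simulated data. Other alternatives were RLE scaling, no filter, a mean of at least 5 CPM, fits of only the compared groups, leaving out each replicate, adding or dropping the replicate or animal block, and fits without shallow libraries, libraries with blood cell genes, or SPF2152, GF530 and GFA518. The averages over groups and the interactions with region were chosen after seeing the data.

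The members and gene lists were chosen with earlier results of these data known. The named genes are the members, Nnt, up to 3 called genes per list and comparison by smallest p, and the 2 genes most like each called member. Further called genes of the lists were named after their values were seen. Replicates carry different animal labels; over 61 pairs of libraries from the same group, chi-square divided by its degrees of freedom was 10.09 to 60.25, so all were counted as separate samples. p-values measure the spread between these samples. Cortex and hippocampus libraries with the same animal label come from 1 animal, which is the source of the pairing; their deviations correlated at r = 0.027 to 0.115, over 0.1 in 4 of 11. The same numbers in whole brain name different mice. Lengths come from GENCODE M21.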

Additional observations from a re-analysis of the deposited data

Results flagged for a closer look

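In each group of 4 or 5 libraries the highest and lowest value of each member was compared with the rest by Dixon's criterion. Of 80 combinations of gene and group 2 passed, where chance gives about 5%. Both were in wild-type hippocampus GFA524, where Prdx3 was 49.5 CPM against 80.3 to 86.6 CPM in the other GFA libraries and Prdx5 was 60.6 CPM against 84.6 to 88.0 CPM. Both genes encode peroxiredoxins found in mitochondria, but the low values in GFA524 were not limited to mitochondrial members. Among the wild-type hippocampal GFA libraries it was also lowest for Txn2 (33.2 CPM), Gpx4 (41.8 CPM), Gpx1 (272 CPM) and Prdx1 (136 CPM). Sod1 and Sod2 were lowest in GFA524 too. Cat was highest there, at 111 CPM, and Txnrd2, at 46.9 CPM, was not lowest. Without this animal Prdx3 and Prdx1 were called higher in hippocampus than in cortex in the average over conditions (log2 0.24, adjusted p = 0.033, and 0.20, adjusted p = 0.034, edgeR). With all animals Prdx1 was also called in that average by DESeq2 (adjusted p = 0.011), at a mean of 5 CPM (0.02) and with RLE scaling (0.046).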

How the results depend on the processing

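Of the member results called in the main or the alternative run, none changed sign. Signs of member results called in neither run were not compared. Members called changed as follows. With DESeq2 there was 1 in whole brain GF against SPF (Gpx1, adjusted p = 0.01), 1 in wild-type hippocampus GFA against GF, and between regions 3 in SPF, 1 in GF and 3 in GFA. In these comparisons, in this order, DESeq2 called 638, 365, 896, 509 and 1406 of all genes. The regional average had 3 (Prdx1 added) against 2 with DESeq2, at a mean of 5 CPM and with RLE scaling. With a mean of at least 5 CPM there was 1 in whole brain (Gpx1, 0.048), and between regions 1 in SPF and 3 in GFA; with no filter 1 and 2. Without animals GF530 and GFA518 there was 1 in SPF and 0 in GFA, and in GFA also 0 with RLE scaling and 0 with no replicate block. Leaving out each replicate gave 0 to 1 in cortex GF against SPF, 0 to 1 in the GFA against GF average, 0 to 2 between regions in GFA and 2 to 4 in the regional average. The cause was not tested. The replicate block in whole brain, fitted without GF2 and GF5, whose numbers SPF lacks, left 0 members called and 51 of all genes against 226; the effects of the block and of dropping them were not separated, and the numbers there pair nothing (r = -0.037 to -0.003). Dropping the animal block took all genes called from 120 to 6 in SPF, 6 to 16 in GF and 397 to 129 in GFA.

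Counts over all genes moved by over 1.5 times in many settings. Leaving out 1 replicate gave 83 to 242 in whole brain; 124 to 379, 23 to 166 and 25 to 55 in cortex; 25 to 109, 29 to 130 and 12 to 22 in wild-type and 107 to 319, 2 to 38 and 1 to 10 in 5xFAD hippocampus; 26 to 327, 31 to 123 and 252 to 379 for genotype; 0 to 23, 0 to 18 and 17 to 360 for regions; 481 to 840, at least 156, and 32 to 51 for the averages over genotypes (797, 316 and 45 with all libraries); 926 to 1338 for genotype over 3 conditions (1188 with all libraries); and 1242 to 2061 for the regional average. DESeq2 gave more calls: whole brain 226 to 638; cortex 259 to 613, 147 to 467 and 55 to 136 (GF against SPF, GFA against GF, GFA against SPF); wild-type hippocampus 124 to 438, 84 to 365 and 21 to 86; 5xFAD 311 to 602, 14 to 144 and 9 to 82; genotype in SPF, GF and GFA 97 to 310, 129 to 429 and 428 to 771; genotype interactions 0 to 15, 0 to 7 and 0 to 10; regions in SPF, GF and GFA 120 to 896, 6 to 509 and 397 to 1406; region interactions 0 to 4, 0 to 2 and 0 to 0; averages over genotypes 797 to 1219, 316 to 625 and 45 to 148; regional average 2086 to 3131. Fitting only the groups compared gave 153, 316, 34, 0, 11, 121, 2 and 10 for cortex GF against SPF, cortex GFA against GF, the 3 wild-type hippocampus comparisons, 5xFAD GFA against GF and against SPF, and genotype in SPF. Between regions, no filter gave 541, 345 and 1011, a mean of at least 5 CPM 303, 99 and 767, and leaving out GF530 and GFA518 246, 0 and 124 (1356 in the average). With no filter cortex GFA against SPF had 85 and 5xFAD GFA against GF 30, and the region interactions 22, 17 and 4; at 5 CPM the 5xFAD GFA comparisons had 46 and 5. Genotype in SPF had 457 without SPF2152, GF530 and GFA518, 12 without SPF3 and SPF2153 and 21 without the shallow SPF4 and SPF2142. Under RLE scaling the 6 regional calls in GF (2 higher, 4 lower) became 3 (2 higher, 1 lower). Without SPF2152, GF530 and GFA518 there were 477, 61 and 38 in the 5xFAD comparisons (GF against SPF, GFA against GF, GFA against SPF), 127 in wild-type GFA against GF and 1 in the GF against SPF genotype interaction (1 also with no filter). Without SPF3 and SPF2153 there were 204 in 5xFAD GF against SPF, 1 in 5xFAD GFA against SPF and 13 in wild-type GFA against SPF. Without SPF4 and SPF2142 there were 23 and 2 in the 5xFAD GFA comparisons and 78 in wild-type GF against SPF. Without GF530 and GFA518 the GFA against GF region interaction had 1. Genes of the pathway lists other than Nnt were not run under the alternatives. Depth limits Sod1 and Sod2 most, with the lowest counts at 136 and 188.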
